A study of Mus musculus with 16 samples.

Results

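The 36 genes described here encode the machinery of autophagy, mitophagy and the lysosome. They were chosen by name from a gene table of 11631 protein-coding genes, and all 36 had values in each of the 4 conditions studied. By role they were 4 genes of the initiation complex, 4 of the class III phosphatidylinositol 3-kinase (PI3-kinase) complex, 4 of membrane supply and 6 of the conjugation machinery. A further 5 encode the Atg8 family, 3 cargo receptors, 4 mitophagy factors and 6 a transcriptional regulator and lysosomal proteins.

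In autophagy, a kinase complex that senses nutrients starts the growth of a membrane sac around cytoplasmic cargo, a lipid kinase marks that membrane, and a ubiquitin-like conjugation system attaches Atg8 proteins such as LC3 to it. Receptors tie cargo to the Atg8 proteins, damaged mitochondria are taken in by their own receptors, and the closed vesicle fuses with a lysosome, where cathepsins degrade its content. In the heart, where cardiomyocytes are hardly replaced, the pathway is known for the turnover of mitochondria and for energy supply during starvation.

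RNA sequencing was performed on adult cardiomyocytes in primary culture, isolated from C57BL/6 mice, to ask how the dipeptidyl peptidase-4 (DPP-4) inhibitor linagliptin and the diabetic state affect gene expression. Control cells came from mice aged about 8 weeks, and DM-HFD cells came from mice fed a high fat diet for 26 weeks and injected with streptozotocin, a toxin of pancreatic beta cells, after 12 weeks of that diet. Cells of each kind were held for 24 h in 9 nmol/L linagliptin or in 0.1% DMSO, the vehicle, which gave 5 libraries for each condition of control cells and 3 for each condition of DM-HFD cells. Diet, streptozotocin and age therefore differed together, and whether both kinds of cells were prepared together is not given in the sources used here, so these cannot be told apart. The labels do not say that replicates came from separate animals, and p-values then measure only the spread between these libraries, which may be technical.

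Values were FPKM, read fragments scaled by the length of the transcript and the depth of the library, so that levels of different genes can be set beside each other. The number of reads behind them is not used here, so precision came from the replicates alone. The median gene had 4.66 to 5.16 FPKM in the 10 control libraries and 3.66 to 4.42 FPKM in the 6 DM-HFD libraries. Mitochondrially encoded mRNAs took 33.1% to 40.0% of all FPKM in control cells, 44.1% to 52.2% in DM-HFD cells with vehicle and 26.5% to 41.4% in DM-HFD cells with linagliptin. The cells had the mRNAs of cardiomyocytes, with a summed level over 10 markers of 10054 to 11374 FPKM in control cells with vehicle and 8739 to 11956 FPKM in DM-HFD cells with vehicle. Over the macrophage markers with values (11 of 14) the sum was 59.7 to 85.2 FPKM in control cells with vehicle, 71.8 to 156 FPKM in DM-HFD cells with vehicle and 67.9 to 277 FPKM in DM-HFD cells with linagliptin.

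TFEB, the transcription factor that drives lysosomal and autophagy genes, is known to bind a palindrome with the core TCACGTGA. The 250 bases before each start annotated by RefSeq were therefore searched for it on both strands. Such a start can lie inside the span of the gene in the gene table, as for Ctsd (chromosome 7, 142375911 to 142388038). RefSeq promoters of GRCm38.p6 could be matched for 28 of the 36 genes. The core was found in 2 of them (7.14%) and in 0.785% of all 32851 promoters of the same length. The core without its last base, TCACGTG, was found in 4 (14.3%, against 3.13% of all promoters), and the inner CACGTG, which both longer motifs contain, in 7 (25%, against 6.02%). The matches are descriptions of letters, not binding sites, and the longer motifs overlap the shorter ones by construction. A gene counted as a match if any of its promoters matched, while the background counted each promoter, so the shares are not like for like. The stretches below hold the full palindrome in capitals with 20 bases on either side, from Ctsd on the minus strand at chr7:142387899-142387946 and from Atg3 on the plus strand at chr16:45158737-45158784. They are shown because Ctsd and Atg3, the genes that share it, had fold changes of opposite sign in DM-HFD cells.
Ctsd: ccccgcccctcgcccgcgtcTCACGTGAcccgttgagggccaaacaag
Atg3: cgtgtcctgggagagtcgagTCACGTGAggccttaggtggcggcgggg

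The genes spanned a wide range of levels. Sqstm1, the cargo receptor sequestosome, had a mean of 793 FPKM over the 16 libraries and stood at percentile 99.8 of all genes. Next came the aspartic protease Ctsd at 378 FPKM, the LC3 gene Map1lc3a at 265 FPKM, the lysosomal membrane glycoprotein Lamp1 at 160 FPKM and the mitophagy kinase Pink1 at 152 FPKM. The neighbours Lamp1 and Pink1 did not differ beyond their spread, at 155 ± 24.5 and 145 ± 13.7 FPKM (SD, n = 5) in control cells with vehicle. Gabarap (111 FPKM), Ctsb (96.7 FPKM) and Gabarapl1 (81.5 FPKM) followed, and the lowest levels were those of Uvrag at 2.95 FPKM and Atg7 at 2.17 FPKM. In the initiation complex Ulk1, Ulk2, Rb1cc1 and Atg13 had 10.9, 11.3, 4.32 and 21.1 FPKM. By gene value, Atg13, the Atg8 gene Map1lc3b (20.1 FPKM) and the cathepsin Ctsl (21.8 FPKM) lay close together. Summed over their transcripts, however, these genes had 24.2, 57.9 and 71.1 FPKM. By such sums Map1lc3a (174 FPKM) also lay below Lamp1 (192 FPKM), so the order given here holds for the gene values alone. Summed over the 36 genes, the level was 2184 ± 125 FPKM in control cells with vehicle (SD, n = 5), 2107 ± 131 with linagliptin (n = 5), 2614 ± 280 in DM-HFD cells with vehicle (n = 3) and 3195 ± 463 with linagliptin (n = 3). The FPKM of all genes also summed to more in DM-HFD cells with vehicle, 396695 against 331533 in control cells. As a share of all FPKM the 36 genes took 0.659% ± 0.029, 0.644% ± 0.034, 0.661% ± 0.090 and 0.897% ± 0.157 in the same order. With vehicle the share was thus alike in both kinds of cells. Sqstm1 alone made up 30.2% ± 5.19 of that sum in control cells with vehicle and 35.6% ± 2.33 in DM-HFD cells with vehicle.

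The comparison of DM-HFD with control cells in vehicle asked what differed with the diabetic, high fat diet state. Of the 36 genes, 12 were lower and 0 higher at an adjusted p under 0.05 from limma. Those 12 are 33.3% of the set, and among all 11359 genes tested 28.3% were lower and 2.91% higher, so the share that fell was close to that of genes in general. At an unadjusted p under 0.05, 14 of the genes were lower and 6 higher, against 36.2% and 6.24% of all genes. By the cut-offs that the study applied (1.5-fold or more, unadjusted p of 0.05 or less) 8 were lower and 0 higher, against 18.2% and 1.84% of all genes. The median log2 fold change, on the scale of log2(FPKM + 1), was -0.16 over the 36 genes and -0.20 over all genes. Higher genes whose groups did not overlap were Sqstm1 and Map1lc3b, 5.56% of the set against 3.39% of all genes, and 13 genes lay lower without overlap, 36.1% against 30% of all genes. In bulk samples, fewer cells of a type and less RNA per cell cannot be told apart.

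**Figure D1:**
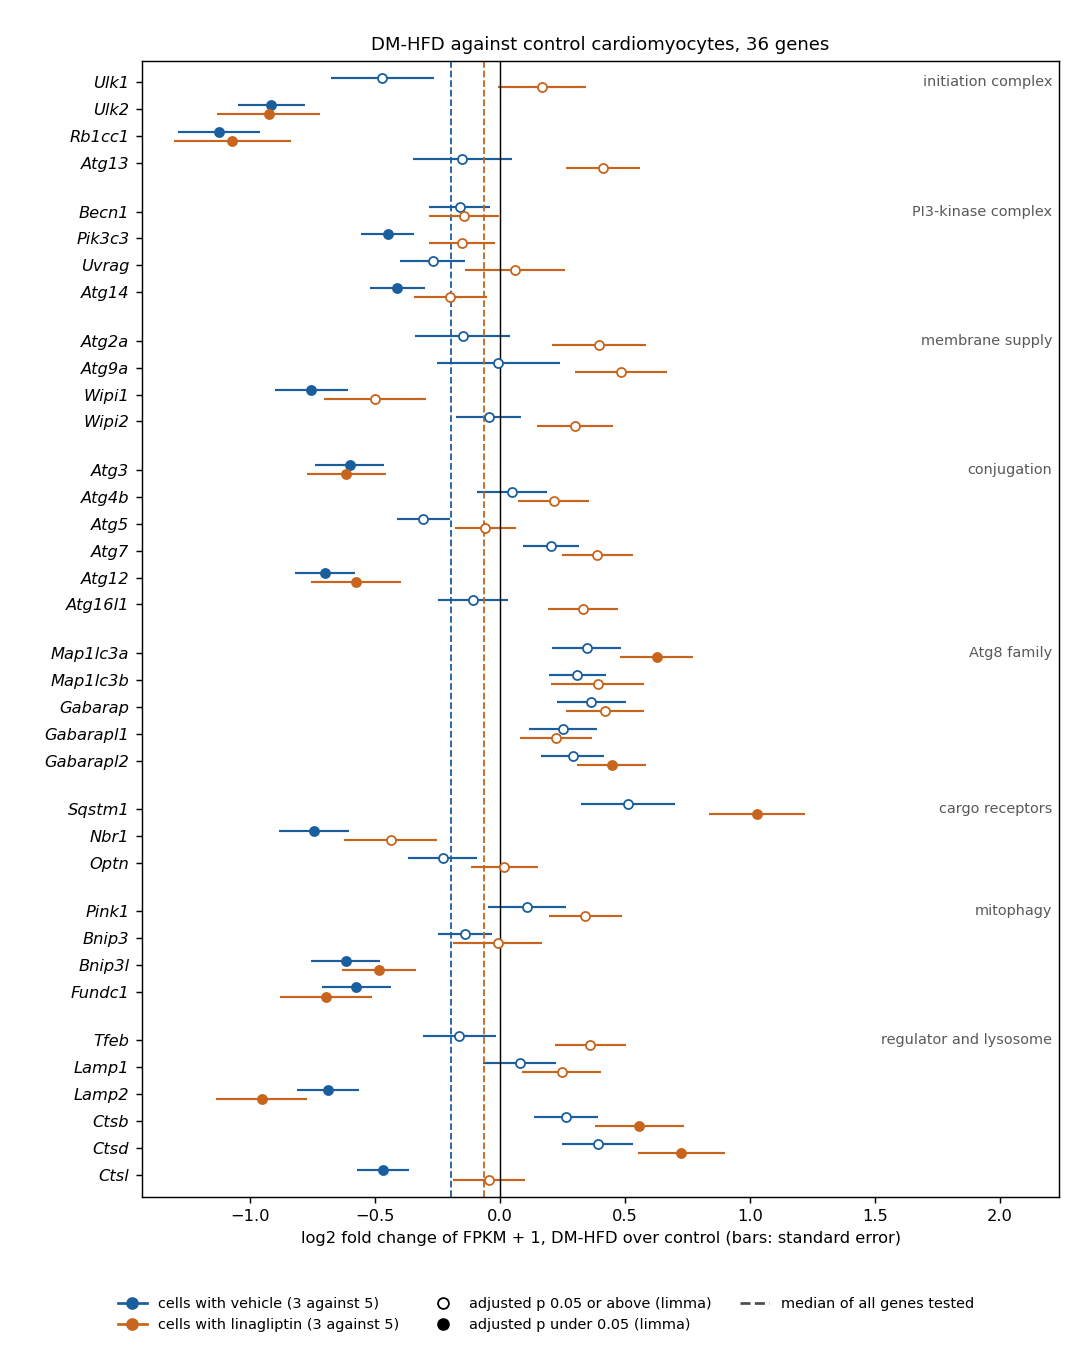
Log2 fold change of FPKM + 1 with its standard error for the 36 genes, grouped by role, for DM-HFD over control cells with vehicle (blue) and with linagliptin (orange), 3 against 5 libraries each. Filled points have an adjusted p under 0.05 (limma), and the dashed lines mark the medians of all genes tested, -0.20 and -0.06. Ulk2 and Rb1cc1 lie farthest to the left with vehicle, and the 5 genes of the Atg8 family lie to the right of 0 in both comparisons.

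In the initiation complex, which receives the signals of nutrient and energy sensors, 2 of 4 genes fell. Since 28.3% of all genes tested fell, counts in roles of 3 to 6 genes, here and below, do not set a role apart from genes in general. Ulk2, a kinase that starts autophagosome formation, lies on chromosome 11 (61775649 to 61855073, GRCm38). Its level was 14.6, 13.6, 14.3, 14.9 and 11.3 FPKM in control libraries 1 to 5 and 6.45, 8.02 and 6.03 FPKM in DM-HFD libraries 1 to 3. The DM-HFD libraries all lay below the lowest control library, and the log2 fold change was -0.91 (standard error, SE, 0.13, limma adjusted p = 0.000973). Rb1cc1 (FIP200, chromosome 1, 6206197 to 6276648) is the scaffold on which the complex assembles. It had 5.83, 5.0, 5.58, 6.65 and 4.20 FPKM in control libraries and 2.20, 2.40 and 1.33 FPKM in DM-HFD libraries, again without overlap. Its log2 fold change of -1.12 (SE 0.16, limma adjusted p = 0.000973) was the lowest of the 36. Ulk1, the other kinase, had a log2 fold change of -0.47 (limma adjusted p = 0.111) with overlapping groups. Atg13, which links the kinases to the scaffold, had -0.15.

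In the PI3-kinase complex, which makes the lipid that marks the growing membrane, 2 of 4 genes fell. Pik3c3, the catalytic subunit, was 8.32 ± 0.566 FPKM in control cells (SD, n = 5) and 5.82 ± 0.305 FPKM in DM-HFD cells (SD, n = 3), a log2 fold change of -0.45 (SE 0.11, limma adjusted p = 0.00944). Atg14, the subunit that directs the enzyme to autophagosome formation, was 4.25 ± 0.230 FPKM and 2.96 ± 0.392 FPKM (SD, n = 5 and 3). Its log2 fold change of -0.41 (SE 0.11, limma adjusted p = 0.0163) was the smallest among the 12 genes, and without DM-HFD vehicle replicate 3 the adjusted p was 0.0701. The 3 DM-HFD libraries lay below all control libraries for both genes. Becn1, the scaffold beclin 1, and Uvrag, which replaces Atg14 in complexes that act on endosomes, had log2 fold changes of -0.16 and -0.27 and did not pass (limma adjusted p of 0.344 and 0.144).

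Among the genes that supply membrane, Wipi1 fell. Wipi1, which binds the lipid made by Pik3c3, lies on chromosome 11 (109573331 to 109611967). Its level was 30.8, 33.1, 28.6, 29.7 and 25.8 FPKM in control libraries and 13.6, 20.7 and 17.7 FPKM in DM-HFD libraries. The groups did not overlap, and the log2 fold change was -0.75 (SE 0.15, limma adjusted p = 0.00369). Its paralogue Wipi2 had 5.59 ± 0.591 FPKM in control cells (SD, n = 5) and 5.41 ± 0.911 FPKM in DM-HFD cells (SD, n = 3), a log2 fold change of -0.04. The lipid transfer protein Atg2a and the membrane scramblase Atg9a had values of -0.15 and -0.0060.

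In the conjugation machinery 2 of 6 genes fell. Atg12 is the ubiquitin-like protein that is joined to Atg5, and its level was 31.8, 31.1, 28.3, 26.0 and 31.2 FPKM in control libraries against 17.9, 19.8 and 16.05 FPKM in DM-HFD libraries. Every DM-HFD library lay below the controls (log2 fold change -0.70, SE 0.12, limma adjusted p = 0.00205). Atg3 transfers Atg8 proteins to lipid, and it was 14.8 ± 1.32 FPKM in control cells (SD, n = 5) and 9.48 ± 1.90 FPKM in DM-HFD cells (SD, n = 3), a log2 fold change of -0.60 (SE 0.14, limma adjusted p = 0.00796). Atg5 lay below all controls in each DM-HFD library as well, with a log2 fold change of -0.31, and did not pass (limma adjusted p = 0.0518). The activating enzyme Atg7 had 0.21, the Atg8 protease Atg4b 0.05 and Atg16l1, which places the Atg12 and Atg5 pair on the membrane, -0.11.

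The 5 genes of the Atg8 family, the proteins that are attached to the autophagosome membrane, had log2 fold changes between 0.25 and 0.37, above the median of all genes, and 0 of them passed an adjusted p of 0.05 in limma. Map1lc3a (chromosome 2, 155276297 to 155278073) had 227, 208, 216, 238 and 272 FPKM in control libraries and 246, 331 and 313 FPKM in DM-HFD libraries. A single control library, replicate 5, lay above the lowest DM-HFD library (log2 fold change 0.35, SE 0.14, limma adjusted p = 0.0818). Map1lc3b had 14.8, 16.3, 18.3, 16.4 and 17.3 FPKM in control libraries and 19.0, 22.1 and 21.3 FPKM in DM-HFD libraries. Its groups did not overlap, with a log2 fold change of 0.31 (limma adjusted p = 0.0634). Gabarap had 0.37, Gabarapl2 0.29 and Gabarapl1 0.25. The family stood above 0 in all 21 alternative settings of the analysis, except Gabarapl1 at -0.0027 where every library was scaled to the same sum. Related sequences could share reads among these genes, among their processed pseudogenes and between Bnip3 and Bnip3l. Their sequences were not compared here, and the split of reads between members of a family was not tested.

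The 3 cargo receptors did not move together. Nbr1, a receptor for ubiquitinated cargo, had 23.6, 22.3, 26.2, 26.5 and 20.1 FPKM in control libraries and 12.3, 16.5 and 12.7 FPKM in DM-HFD libraries. It fell without overlap of the groups (log2 fold change -0.74, SE 0.14, limma adjusted p = 0.00312). Sqstm1, which carries ubiquitinated proteins to LC3, lies on chromosome 11 (50199366 to 50210827). It had 702, 668, 739, 433 and 768 FPKM in control libraries and 868, 1059 and 864 FPKM in DM-HFD libraries. Every DM-HFD library lay above every control library, yet the log2 fold change of 0.51 (SE 0.19) did not pass (limma adjusted p = 0.0601). Optn, the receptor optineurin, had -0.23 (limma adjusted p = 0.228).

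The receptors that tether mitochondria were lower in part. Bnip3l (NIX), a receptor of the outer mitochondrial membrane, had 21.1, 23.3, 16.3, 18.1 and 21.2 FPKM in control libraries and 13.9, 12.6 and 11.5 FPKM in DM-HFD libraries. The groups did not overlap, and it fell by 0.62 on the log2 scale (SE 0.14, limma adjusted p = 0.00711). Fundc1, a receptor known for mitophagy under low oxygen, was 8.50 ± 0.949 FPKM and 5.41 ± 1.09 FPKM (SD, n = 5 and 3), with a log2 fold change of -0.57 (SE 0.14, limma adjusted p = 0.0105). Without DM-HFD vehicle replicate 3 the adjusted p of Fundc1 was 0.0507. Bnip3, the paralogue of Bnip3l, had -0.14 (limma adjusted p = 0.354). Pink1, the kinase that recruits Parkin to damaged mitochondria, had 0.11 (limma adjusted p = 0.629).

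Among the lysosomal proteins, Lamp2 and Ctsl fell. Lamp2, a glycoprotein of the lysosomal membrane whose loss causes Danon cardiomyopathy in people, lies on chromosome X (38401357 to 38456454). Its level was 21.4, 24.5, 25.04, 24.5 and 22.8 FPKM in control libraries and 15.5, 15.6 and 12.0 FPKM in DM-HFD libraries. All DM-HFD libraries lay below the controls (log2 fold change -0.69, SE 0.12, limma adjusted p = 0.00256). Its homologue Lamp1 had 155 ± 24.5 FPKM and 162 ± 8.99 FPKM (SD, n = 5 and 3), a log2 fold change of 0.08. Among the cathepsins, the cysteine protease Ctsl had 21.6, 23.5, 22.6, 25.1 and 23.9 FPKM in control libraries and 16.6, 16.9 and 16.3 FPKM in DM-HFD libraries. It fell without overlap (log2 fold change -0.47, SE 0.10, limma adjusted p = 0.00714), while the other cathepsins lay above 0. Ctsd had 277, 299, 319, 374 and 353 FPKM in control libraries and 356, 467 and 457 FPKM in DM-HFD libraries, so that 1 control library lay within the DM-HFD range (log2 fold change 0.39, limma adjusted p = 0.0590). Ctsb, a cysteine protease, had 0.26 (limma adjusted p = 0.143). Tfeb itself, at 3.96 ± 0.448 and 3.48 ± 0.949 FPKM (SD, n = 5 and 3), had -0.16 (limma adjusted p = 0.428).

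**Figure D2:**
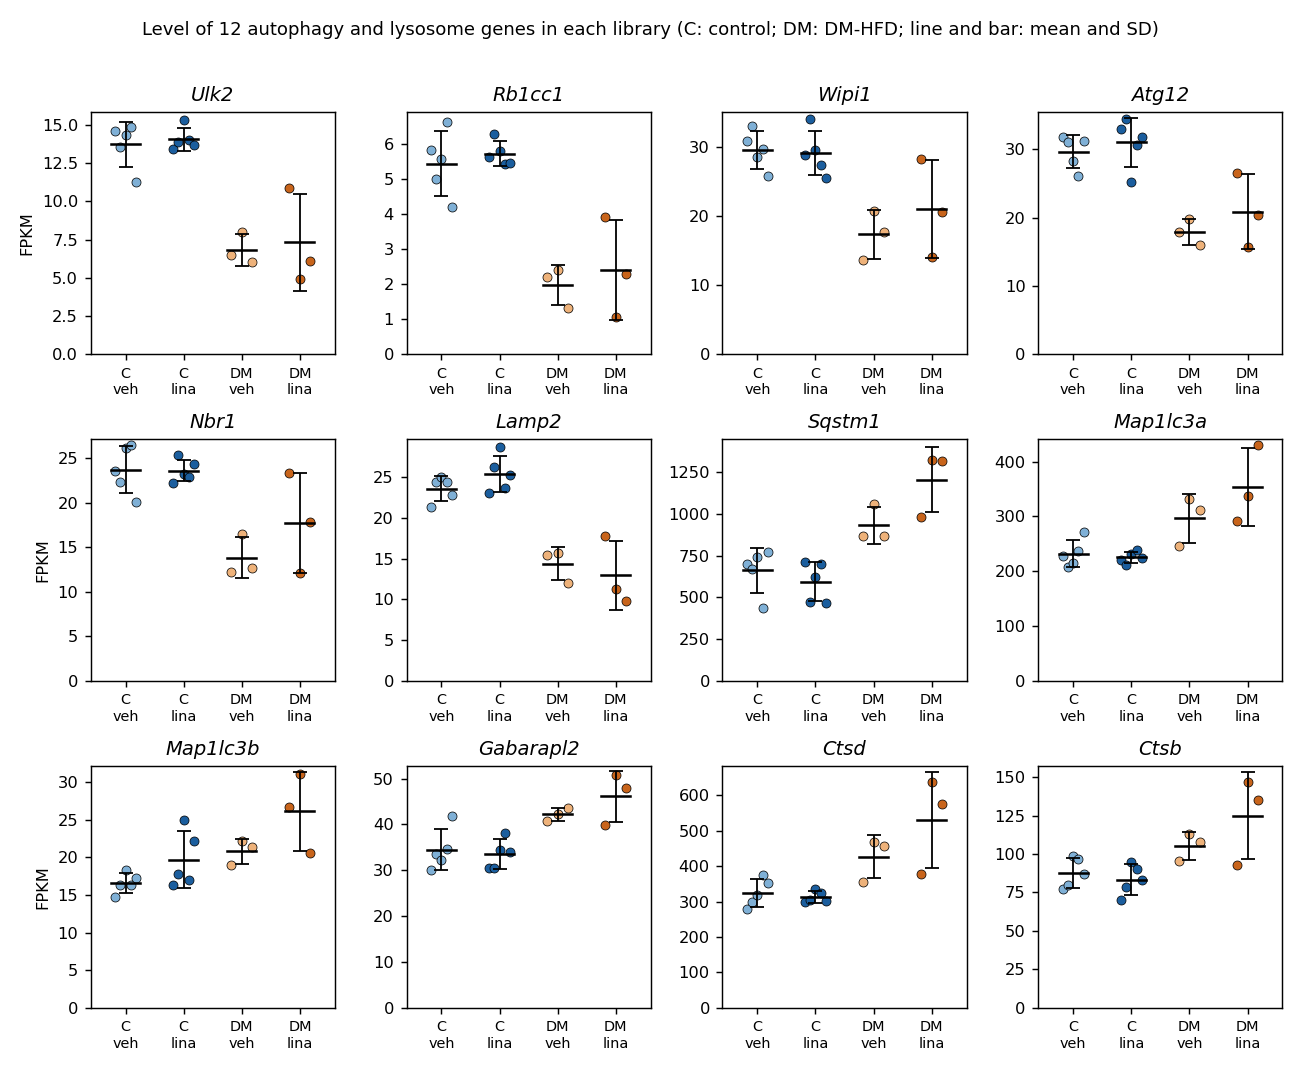
FPKM of 12 of the genes in every library, on axes that start at 0, with the mean and SD of control cells with vehicle and linagliptin (n = 5 each) and DM-HFD cells with vehicle and linagliptin (n = 3 each). Ulk2, Rb1cc1, Wipi1, Atg12, Nbr1 and Lamp2 sit lower in DM-HFD cells with vehicle than in every control library with vehicle, and a DM-HFD linagliptin library, replicate 1, sits nearer to the controls for these genes.

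The direction of many of these differences followed the transcripts' base composition and length. Over 11238 genes, the log2 fold change with vehicle had a Spearman's rho of 0.50 with GC content and -0.49 with transcript length, and over the 36 genes 0.57 and -0.41. These are descriptions across genes, which share their libraries and are not independent replicates. The 12 genes that fell had a median GC content of 44.8% and a median length of 3238 bases, the other 24 had 52.5% and 2544 bases, and all genes had 50.5% and 2800 bases. The 5 genes of the Atg8 family, which lay above 0, were short, with medians of 52.6% and 1677 bases. With trends over length and GC removed from each library, an alternative chosen after the data had been seen, 2 genes were lower (Ulk2 and Wipi1) and 3 higher (Map1lc3b, Gabarapl2 and Ctsb), against 5.28% and 4.23% of all genes. The part of base composition and length in the differences was otherwise not tested.

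**Figure D3:**
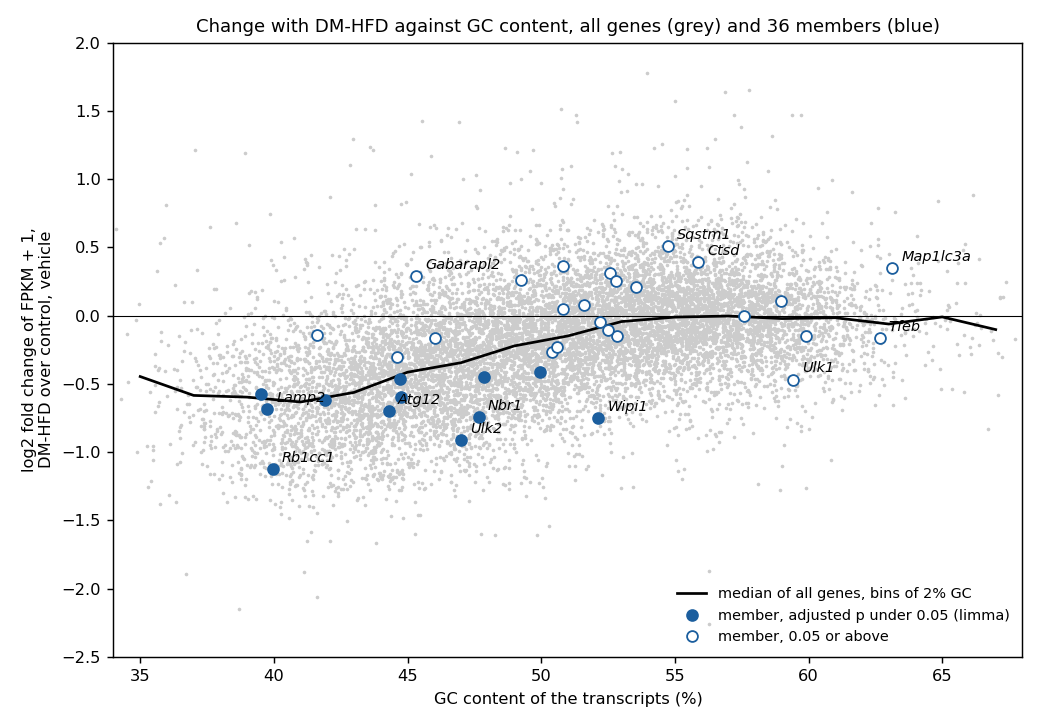
Log2 fold change of FPKM + 1 in DM-HFD over control cells with vehicle against the GC content of the transcripts (%), for 11238 genes (grey), their median in bins of 2% GC (line) and the 36 genes (blue; filled, adjusted p under 0.05 from limma); 16 genes fall outside the drawn window. The grey median rises with GC content, the members with the lowest GC content, such as Rb1cc1 and Lamp2, lie near the bottom, and Wipi1 lies well below the line at its GC content of 52.1%.

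The split of calls also turned on how libraries were scaled. Where libraries were divided by their median ratio to the mean library, so that the typical gene was equal in all (median-of-ratios scaling), 9 genes were higher (25%) and 6 lower (16.7%) with vehicle, against 13.4% and 15.6% of all genes, and the median of all genes moved from -0.20 to 0.02. With quantile scaling 4 were higher and 6 lower, against 11.3% and 13.5% of all genes. With the same sum in every library 0 were higher and 18 (50%) lower, against 1.07% and 46.1%. With the same sum over genes not encoded in mitochondria the counts were 6 and 12, against 4.27% and 26.1%, and with gene values summed from transcripts 2 and 12, against 2.67% and 22.1%. By the median-of-ratios scaling, Atg7, the Atg8 family, Sqstm1, Ctsb and Ctsd were higher and Ulk2, Rb1cc1, Wipi1, Atg12, Nbr1 and Lamp2 lower. Wipi1 was lower at an adjusted p under 0.05 in all 21 alternatives (highest limma adjusted p 0.0313), and the log2 fold change of Wipi1 ranged from -1.03 to -0.48. Ulk2 was lower in 20 of 21, and Rb1cc1, Atg12, Nbr1 and Lamp2 in 19 of 21. The remaining alternatives were those with trends over length and GC removed, for Ulk2 only the one that added median-of-ratios scaling. In them the log2 fold changes of Atg12 and Lamp2 came up to -0.04 each, with limma adjusted p up to 0.848 and 0.821. Leaving out a library gave 10 to 13 lower and 0 to 4 higher genes, with 4 higher without control vehicle replicate 5 and 2 higher without DM-HFD vehicle replicate 1, against 4.11% and 2.46% of all genes.

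**Figure D4:**
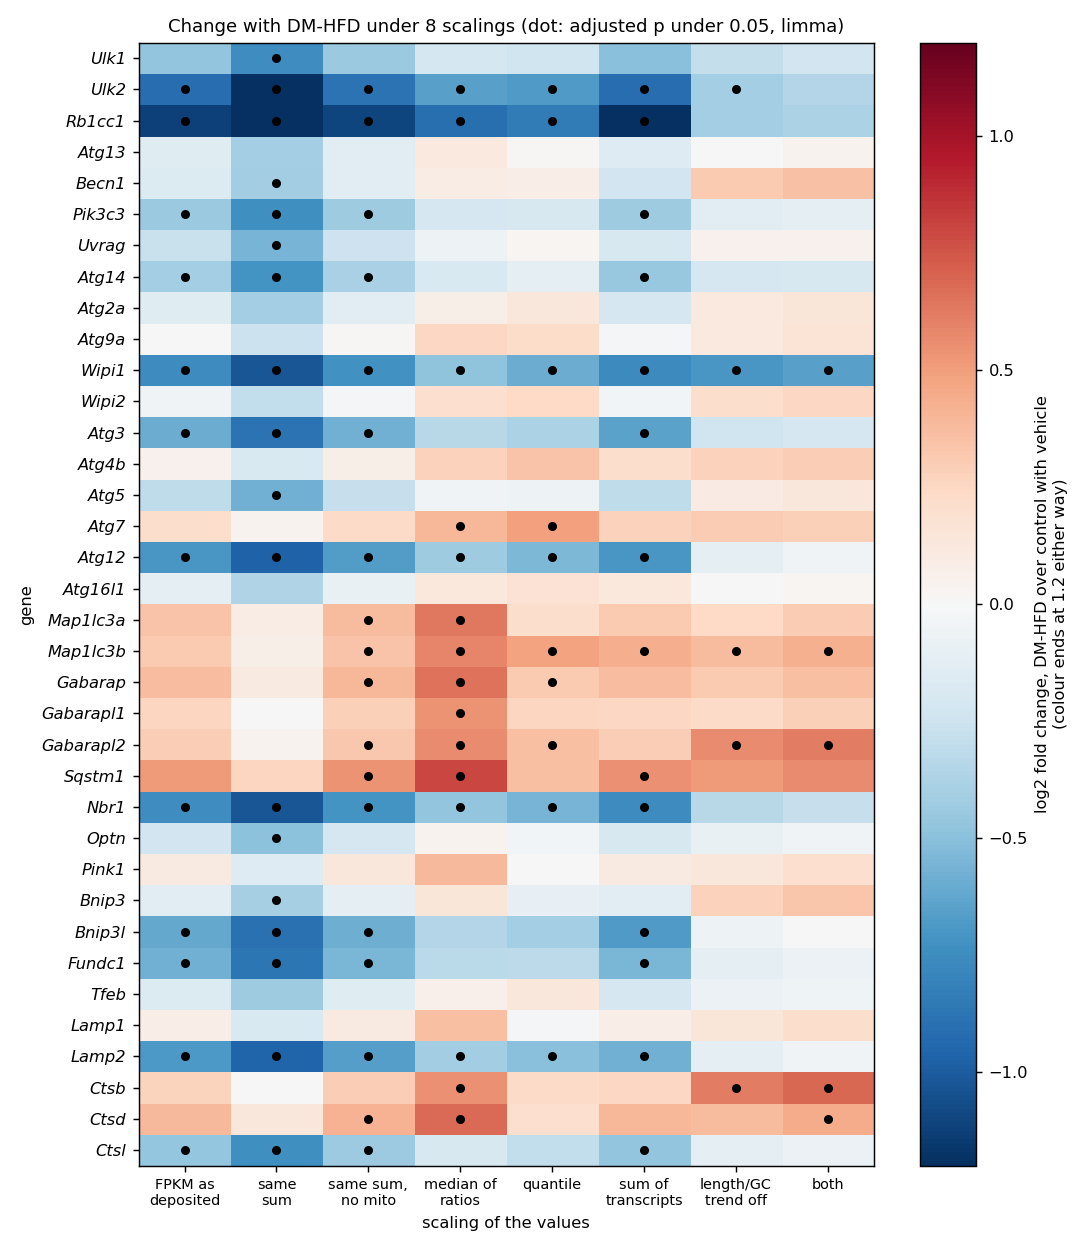
Log2 fold change in DM-HFD over control cells with vehicle (colour, ending at 1.2 either way) of the 36 genes under 8 scalings of the values, with a dot where the adjusted p was under 0.05 (limma). The row of Wipi1 is blue with a dot under each scaling, the Atg8 family is red apart from Gabarapl1 under the same sum in every library, and the blue of Lamp2, Atg12 and Bnip3l fades where the trends over length and GC content are removed.

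Single transcripts gave a further view of the same libraries. Of 80 transcripts of the 36 genes, 76 passed the filter on low values with vehicle, and 8 (10.5%) were lower and 0 higher by limma, against 6.33% and 0.58% of 21197 transcripts tested. At this level Lamp2-202, the most abundant of 3 Lamp2 transcripts, was 52.8 ± 4.70 FPKM in control cells (SD, n = 5) and 28.1 ± 4.89 FPKM in DM-HFD cells (SD, n = 3), a log2 fold change of -0.90 (SE 0.14, limma adjusted p = 0.0132). Ctsl-201 fell by 0.47 on the log2 scale (limma adjusted p = 0.0255), Wipi1-202 by 0.72 (limma adjusted p = 0.0343), Rb1cc1-201 by 1.24 (limma adjusted p = 0.00962) and Rb1cc1-204 by 1.63 (limma adjusted p = 0.0480). Lamp2-201 instead had means of 11.5 FPKM in control and 14.5 FPKM in DM-HFD cells with vehicle, without overlap of the groups. Its log2 fold change was 0.32 (limma adjusted p = 0.19), whereas Lamp2-203 had -0.45 (limma adjusted p = 0.322). Nbr1-202 had 1.17 (limma adjusted p = 0.158), and the other Nbr1 transcripts lay below 0. The fall of the gene values of Lamp2 and Nbr1 was thus not shared by all their transcripts. The gene values are not sums of the transcript values. The ratio of sum to gene value ranged from 0.659 for Map1lc3a to 3.26 for Ctsl.

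The assignment of reads to transcripts differed between libraries of the same condition for some genes, chosen after their values were seen. Sqstm1-205 was listed at 0 in 12 libraries and at 230, 288, 331 and 409 FPKM in control vehicle replicate 4, control linagliptin replicates 5 and 2 and DM-HFD vehicle replicate 3. The 3 control libraries among these had the lowest gene values of Sqstm1, at 433, 464 and 475 FPKM, whereas the other 7 control libraries had 622 to 768 FPKM. Atg13-202, at 16.98 to 34.8 FPKM in 14 libraries, was at 1.57 FPKM in control linagliptin replicate 3 and 1.498 FPKM in DM-HFD vehicle replicate 1, where Atg13-201 was instead at 19.8 and 12.1 FPKM. Whether these shifts contribute to the spread of the gene values was not tested.

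In other genes of the pathway, from lists drawn up for this description, 21 of 142 genes tested (14.8%) were lower with vehicle and 6 (4.23%) higher, against 28.3% and 2.91% of all genes. Among 17 other genes of autophagosome formation, 4 fell and 0 rose, namely the proteases Atg4a (log2 fold change -0.57, limma adjusted p = 0.00416) and Atg4c (-0.49), the membrane-bending Sh3glb1 (-0.43) and the enzyme Atg10 (-0.61), which joins Atg12 to Atg5. Among 18 other receptors and mitophagy factors, 4 fell and 1 rose. Tax1bp1, a receptor for ubiquitinated cargo, went from 19.1 ± 0.887 to 8.86 ± 1.29 FPKM (SD, n = 5 and 3; log2 fold change -1.04, limma adjusted p = 0.000552), and Tbk1, a kinase that activates such receptors, had -0.85. Tex264, a receptor for the endoplasmic reticulum, rose by 0.52 (limma adjusted p = 0.00755).

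Of 33 genes of mTORC1, AMPK and the TFE factors, which set the rate of the pathway, 8 fell and 1 rose. They included Fnip1, a partner of folliculin (-1.24, limma adjusted p = 0.000757), Mitf, a relative of TFEB (-1.28), Sesn1, an inhibitor of mTORC1 (-0.97), and Prkaa2, the alpha-2 catalytic subunit of AMPK (-1.10). Of 17 genes of fusion with the lysosome, 2 fell, the tethering subunit Vps41 (-0.72) and Rilp (-0.48). Of 17 subunits of the lysosomal proton pump, Atp6v0d1 rose (0.36, limma adjusted p = 0.0477) and the accessory subunit Atp6ap2 fell (-0.69, limma adjusted p = 0.0118). Among 40 other lysosomal hydrolases and membrane proteins, 3 rose and 2 fell, with the cathepsin Ctsh (0.38) and the membrane protein Cd63 (0.50) up and the sulfatase Ids (-0.67) and the cathepsin Ctsc (-0.53) down. The medians of these 6 lists lay between -0.24 and 0.16, against -0.20 for all genes.

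Some lysosomal genes are abundant in macrophages, and some macrophage markers were higher in DM-HFD cells. With vehicle, 4 of 10 macrophage markers tested were higher (Cd68, Csf1r, Tyrobp and C1qb) and 0 lower in limma. Lower were 6 of 10 endothelial, 4 of 10 cardiomyocyte, 1 of 8 fibroblast and 3 of 7 smooth muscle and pericyte markers, with 0 higher. Of all genes 28.3% were lower and 2.91% higher. The summed macrophage markers overlapped between the groups, at 59.7 to 85.2 FPKM in control cells and 71.8 to 156 FPKM in DM-HFD cells. Cd68 went from 13.5 ± 2.41 to 33.2 ± 11.6 FPKM (SD, n = 5 and 3; log2 fold change 1.201, limma adjusted p = 0.00260). The part of these cells in the values of Ctsb, Ctsd, Sqstm1 and the other genes was not tested.

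The same comparison in cells held in linagliptin used none of the libraries of the vehicle comparison, although whether it used cells of the same animals is not stated. There 7 genes were lower and 5 higher by limma, 19.4% and 13.9% of the set, against 21.9% and 4.67% of all 11555 genes tested. By the cut-offs of the study 5 were lower and 3 higher, against 17.9% and 3.83%. At an unadjusted p under 0.05, 9 were lower and 12 higher, against 29.9% and 12.8%. The median log2 fold change was 0.19 over the 36 genes and -0.06 over all genes, and 21 of the 36 lay above 0. Spearman's rho of the log2 fold change with GC content was 0.67 over all genes and 0.74 over the 36. With transcript length rho was -0.42 and -0.24. The 7 lower genes were Ulk2, Rb1cc1, Atg3, Atg12, Bnip3l, Fundc1 and Lamp2, all of which were also lower with vehicle (58.3% of the genes lower with vehicle and 100% of those lower with linagliptin). Log2 fold changes had the same sign in both comparisons for 27 of 36 genes. The matching shares over all genes were not computed, so neither count shows that the agreement is particular to this set.

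Sqstm1 had the highest log2 fold change of the 36. Its level was 708, 475, 622, 702 and 464 FPKM in control libraries with linagliptin and 978, 1322 and 1315 FPKM in DM-HFD libraries with linagliptin. The groups did not overlap, and the log2 fold change was 1.03 (SE 0.19, limma adjusted p = 0.00935). Ctsd (chromosome 7, 142375911 to 142388038) had 299, 305, 335, 324 and 300.0 FPKM in control libraries and 378, 637 and 575 FPKM in DM-HFD libraries. The log2 fold change of Ctsd was 0.73 (SE 0.17, limma adjusted p = 0.0162), also without overlap. Map1lc3a had 221, 212, 231, 238 and 225 FPKM in control libraries and 291, 338 and 431 FPKM in DM-HFD libraries. It rose by 0.63 (SE 0.15, limma adjusted p = 0.0153), and the groups lay apart. Gabarapl2 rose by 0.45 (SE 0.14, limma adjusted p = 0.0385) and Ctsb by 0.56 (SE 0.18, limma adjusted p = 0.0425), the latter with 1 DM-HFD library, replicate 1, inside the control range. The other genes above 0 without overlap of the groups were Atg13, Atg7 and Pink1, with log2 fold changes of 0.41, 0.39 and 0.34, so that 7 genes in all (19.4%) lay higher without overlap, against 6.25% of all genes, and 6 (16.7%) lay lower, against 21.8%.

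Of the genes that fell, Lamp2 had the lowest adjusted p, with 23.0, 26.2, 28.8, 23.7 and 25.3 FPKM in control libraries and 17.8, 11.3 and 9.85 FPKM in DM-HFD libraries with linagliptin. The log2 fold change was -0.95 (SE 0.18, limma adjusted p = 0.00942), without overlap. Ulk2 had 13.4, 13.9, 15.3, 14.0 and 13.7 FPKM against 10.9, 4.89 and 6.12 FPKM (log2 fold change -0.92, SE 0.21, limma adjusted p = 0.0138). Rb1cc1 had 5.64, 6.31, 5.81, 5.44 and 5.46 FPKM against 3.91, 1.04 and 2.28 FPKM (log2 fold change -1.07, SE 0.24, limma adjusted p = 0.0132). In both genes DM-HFD linagliptin replicate 1 stood nearer to the controls than the other 2 libraries did. Fundc1 (-0.70, limma adjusted p = 0.0237), Atg3 (-0.61, adjusted p = 0.0211), Atg12 (-0.57, adjusted p = 0.0404) and Bnip3l (-0.48, adjusted p = 0.0388) completed the list. Wipi1, Nbr1, Pik3c3, Atg14 and Ctsl, which fell with vehicle, had log2 fold changes of -0.50, -0.44, -0.15, -0.20 and -0.04 here and did not pass.

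The 3 DM-HFD libraries with linagliptin differed among themselves in the 12 genes that fell with vehicle, which were chosen on the vehicle libraries alone. In replicates 2 and 3, 11 of the 12 lay below the lowest control library with linagliptin, and in replicate 1, 7 did, with Pik3c3, Atg14, Wipi1, Atg12 and Nbr1 not below. Without replicate 1, 14 genes were higher (38.9%) and 10 lower (27.8%), the latter including Wipi1 and Nbr1, against 20.4% and 29.7% of all genes. Without replicate 3, 0 of the 36 passed in limma, against 0.0433% of all genes higher and 0.876% lower, so the counts over all genes moved as well. Without DM-HFD linagliptin replicate 2, 3 were higher and 3 lower, against 1.47% and 16% of all genes. Without control linagliptin replicate 1 there were 3 higher and 4 lower, and without control linagliptin replicate 2 or 5, 3 and 3, while of all genes 1.04% to 1.51% were higher and 13.2% to 16.6% lower in these 3 fits. Sqstm1 and Ctsd rose at an adjusted p under 0.05 in 19 of 21 alternatives each, Map1lc3a in 16, Gabarapl2 in 11 and Ctsb in 10. Lamp2, Ulk2 and Rb1cc1 fell in 17 each, Atg3 in 14, Fundc1 in 13, and Atg12 and Bnip3l in 10 each. With median-of-ratios scaling 12 genes were higher and 5 lower, against 12.7% and 17.2% of all genes, and with quantile scaling 11 and 7, against 12.6% and 13.7%. With the same sum in every library they were 2 and 7, against 1.81% and 27.2%, and with trends over length and GC removed 4 (Gabarapl2, Sqstm1, Ctsb and Ctsd) and 0, against 2.14% and 2.71%.

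In the pathway lists 16 of 142 genes (11.3%) were higher and 16 (11.3%) lower in linagliptin-exposed cells, against 4.67% and 21.9% of all genes, and whether the counts differ from those with vehicle was not tested. Of 40 other lysosomal hydrolases and membrane proteins, 6 rose and 1 fell, with a median of 0.32. Gaa, the acid alpha-glucosidase, had 18.5 ± 3.19 FPKM in control cells and 34.1 ± 8.47 FPKM in DM-HFD cells (SD, n = 5 and 3; log2 fold change 0.83, limma adjusted p = 0.0156). Psap, the precursor of the saposins, had 0.74, the sulfatase Galns 0.67 and Ids -0.66. Of 17 proton pump subunits, 4 rose, among them Atp6v0d1 (0.74, limma adjusted p = 0.0189), Atp6v0e2 (0.59) and Atp6v1f (0.50), and Atp6ap2 fell (-0.69). Of 17 fusion genes, Plekhm1 (0.63) and Vps18 (0.50) rose and the SNARE protein Stx17 (-0.85) and Vps41 (-0.73) fell. Of 33 genes of mTORC1, AMPK and the TFE factors, 2 rose, Rptor (0.69, limma adjusted p = 0.00942) and Lamtor1 (0.64), and 4 fell, including Fnip1 (-1.48) and Foxo1 (-0.37). Of 18 other receptors and mitophagy factors, 1 rose (the prohibitin Phb2, 0.52) and 4 fell, with Tbk1 at -1.02, Tax1bp1 at -1.11 and Ccpg1 at -0.79, and of 17 other genes of autophagosome formation 1 rose and 4 fell. Of the macrophage markers 3 of 11 tested were higher and 0 lower in the same libraries, and their part in these values was not tested.

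Linagliptin itself was compared with vehicle within each kind of cell. In control cells, 0 of the 36 genes were higher or lower by limma, as were 0 of 11365 genes tested (0% in either direction), and 0 of the 36 had an unadjusted p under 0.05, against 2.72% higher and 1.28% lower of all genes. By the cut-offs of the study 0 of the 36 passed, against 0.114% higher and 0.106% lower, and the groups lay apart for 0 of the 36, against 0.581% of all genes higher and 0.176% lower. Log2 fold changes lay between -0.18 and 0.22, with a median of -0.02 over the 36 genes and 0.02 over all genes. The 3 genes with the lowest p were Fundc1, Pik3c3 and Map1lc3b. Fundc1 had 7.53, 9.47, 8.79, 7.45 and 9.24 FPKM with vehicle and 9.97, 10.1, 8.37, 9.63 and 10.6 FPKM with linagliptin, with overlapping groups and a log2 fold change of 0.18 (SE 0.09). Pik3c3 had -0.16 (SE 0.08) and Map1lc3b 0.22 (SE 0.12), each with an adjusted p of 0.997 from limma. Standard errors over the 36 genes ranged from 0.07 to 0.19.

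In DM-HFD cells 0 of the 36 genes passed either an adjusted or an unadjusted p of 0.05 in limma, and 0 of 11127 genes passed the adjusted p (0% in either direction). At an unadjusted p under 0.05, 0.908% of all genes were higher and 0.252% lower. By the cut-offs of the study 0 of the 36 passed, against 0.494% higher and 0.162% lower. Log2 fold changes were above 0 for 35 of the 36 genes, the exception being Lamp2 at -0.17, as they were for 74.8% of all genes. The median was 0.22 over the 36 genes and 0.12 over all genes, and with median-of-ratios scaling 28 of the 36 lay above 0 and with the same sum over genes not encoded in mitochondria 27. Spearman's rho of the log2 fold change with GC content was 0.48 over all genes and 0.59 over the 36. In control cells it was -0.34 and -0.46. The part of GC content in the response was not tested. The groups did not overlap for 4 genes that were higher (11.1%), against 5.66% of all genes, and for 0 that were lower, against 0.62%. Those with the lowest p were Atg9a, Ulk1 and Ctsl. Atg9a had 6.44, 10.44 and 10.42 FPKM with vehicle and 10.5, 13.7 and 16.1 FPKM with linagliptin, a log2 fold change of 0.53 (SE 0.25, limma adjusted p = 1.00). Ctsl had 16.6, 16.9 and 16.3 FPKM with vehicle and 18.5, 27.8 and 21.5 FPKM with linagliptin, also without overlap (0.40, SE 0.20). Ulk1 had 6.01, 10.1 and 8.99 FPKM against 10.03, 11.4 and 15.1 FPKM (0.50, SE 0.25), and its groups overlapped. Standard errors over the 36 genes ranged from 0.17 to 0.33, which limits the size of a response that these 6 libraries could show.

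**Figure D5:**
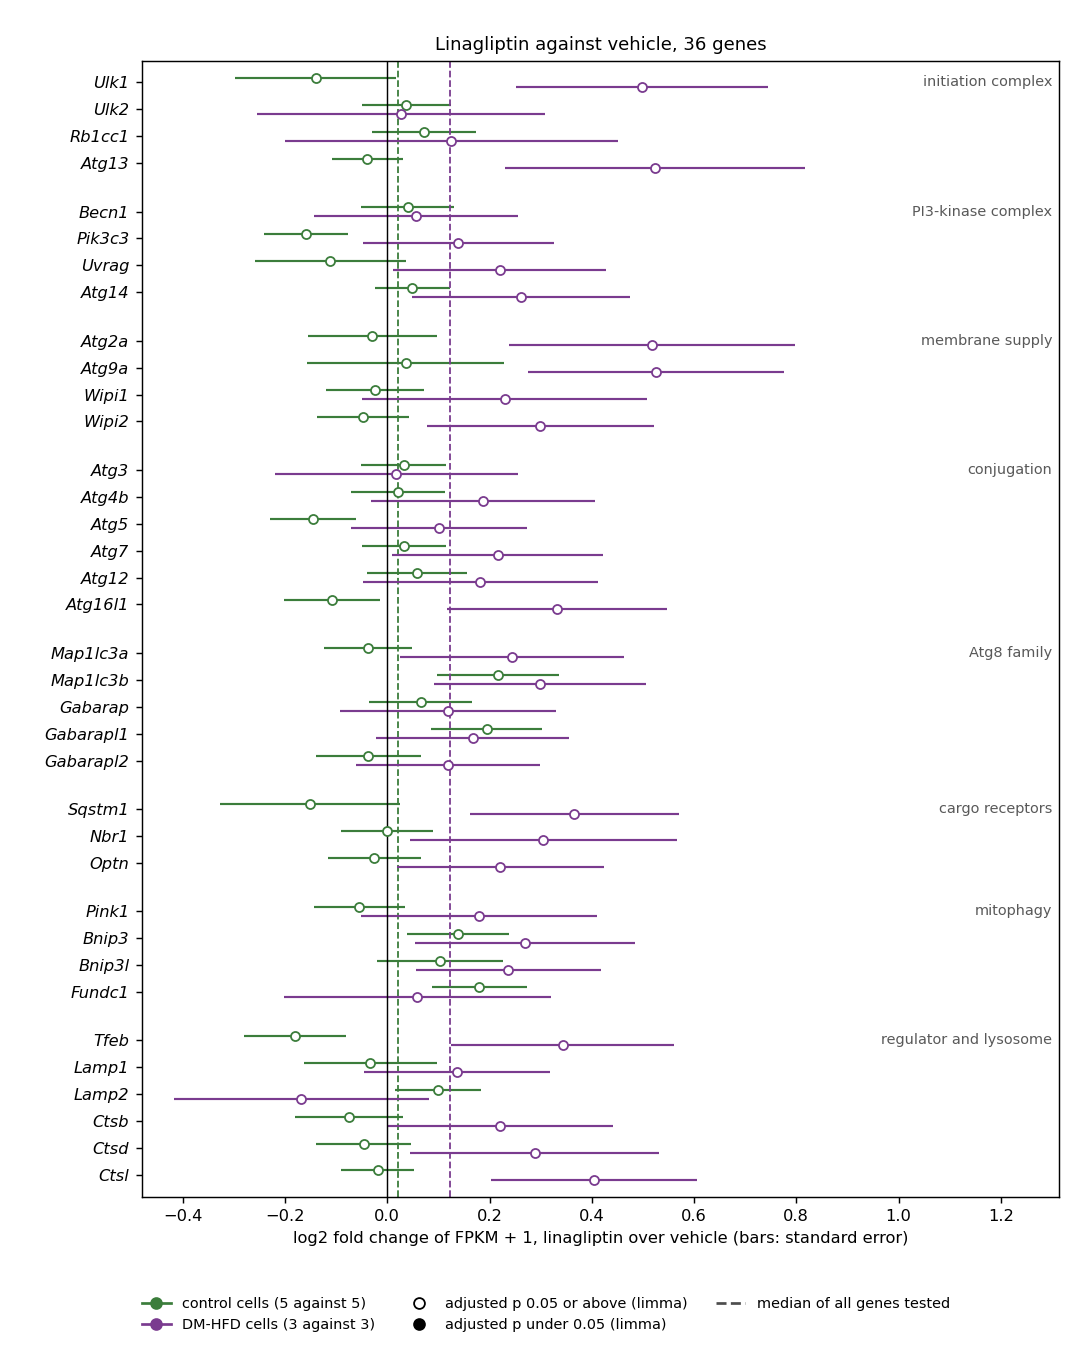
Log2 fold change of FPKM + 1 with its standard error for linagliptin over vehicle in control cells (green, 5 against 5 libraries) and in DM-HFD cells (purple, 3 against 3), for the 36 genes by role. No point is filled, since 0 genes had an adjusted p under 0.05 (limma); the green points lie between -0.18 and 0.22, and all purple points but that of Lamp2 lie to the right of 0.

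Whether the response to linagliptin differed between the 2 kinds of cells was tested as an interaction over all 16 libraries and 11631 genes. By limma 0 of the 36 genes passed an adjusted p of 0.05, as did 0 of all genes (0% in either direction). At an unadjusted p under 0.05 the response was more positive in DM-HFD cells for 5 genes (13.9%, against 3.8% of all genes) and more negative for 0, against 0.774%. These were Tfeb (difference in log2 fold change 0.52, SE 0.20), Ctsl (0.42, SE 0.16), Atg16l1 (0.44, SE 0.19), Ulk1 (0.64, SE 0.28) and Atg13 (0.56, SE 0.25), each with an adjusted p of 0.891 from limma. Tfeb had 3.48, 3.76, 4.61, 4.21 and 3.75 FPKM in control cells with vehicle and 2.63, 3.56, 3.36, 4.09 and 3.31 FPKM with linagliptin. In DM-HFD cells it had 2.69, 4.54 and 3.22 FPKM with vehicle and 4.002, 4.88 and 4.99 FPKM with linagliptin, so the groups overlapped in both kinds of cells. By the cut-offs of the study 1 gene, Ulk1, passed, against 1.3% of all genes higher and 0.421% lower. The difference in response had a Spearman's rho with GC content of 0.54 over all genes and 0.63 over the 36. The part of GC content in it was not tested.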

How the data were processed

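Polyadenylated RNA of 16 libraries was sequenced as 150-base pairs. Per the labels and the submitters' processing notes, the authors trimmed reads with cutadapt, aligned them to GRCm38 with HISAT2 2.1.0 and estimated abundance with StringTie 1.3.3 and Ballgown, and FastQC 0.11.7 was run. The deposited values are FPKM per gene and per transcript of protein-coding genes, 1 value per library, without pooling; read numbers are not used here. Groups were compared in R 4.3.3 with limma 3.58.1 on log2(FPKM + 1), which understates changes of low genes, fitting the compared groups only, with a trended prior variance, leaving out genes whose mean was under 0.5 FPKM in both groups. P-values were adjusted over all of them by Benjamini and Hochberg, and the interaction was fitted on all 16 libraries. Tests were checked on simulated data. Tables were handled in Python 3.11.15 (pandas 2.3.3, matplotlib 3.10.9). GC content and length came from GENCODE transcripts and were matched for 11470 of 11631 genes. The text gives full statistics for members called with vehicle, and in linagliptin comparisons for those past the thresholds of the study or among the 3 lowest p; of pathway lists it names at most 4 called genes. Members and lists were chosen with earlier results of these data known. Alternatives were a pseudocount of 0.1, other filters on low values, other scalings, sums of transcripts, no trend in the prior variance, all 16 libraries in the fit, a replicate block, leaving out each library and removal of trends over length and GC, fitted as splines with 5 degrees of freedom.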

Additional observations from a re-analysis of the deposited data

Results flagged for a closer look

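Gabarap had 122 FPKM in control vehicle replicate 5, whereas the other 4 libraries of that group lay between 88.9 and 94.3 FPKM. The gap to the nearest library was 0.84 of the whole range of the group, above Dixon's 95% critical value for 5 samples. It was the only one of 72 pairs of a gene and a group tested, and chance flags about 1 pair in 20.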

How the results depend on the processing

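Counts below are of the 36 genes at an adjusted p under 0.05 in limma, in either direction, unless stated. With vehicle the count of 12 was 5 with trends over length and GC content removed, alone or after median-of-ratios scaling (both alternatives were chosen after seeing the data), and 10 to 17 on leaving out each library. Of all genes, 28.3% were lower and 2.91% higher in the main fit, and 5.28% and 4.23% with the trends removed. The shares were 5.08% and 4.52% with the trends removed after median-of-ratios scaling. On leaving out a library, 21.3% to 28.1% of all genes were lower and 1.01% to 5.07% higher. By the cut-offs of the study the 8 genes became 13 with the same sum in every library, 3 with quantile scaling, 2 with the trends removed, 3 with the trends removed after median-of-ratios scaling, and 5 to 9 on leaving out a library. With linagliptin the count of 12 was 4 with the trends removed under either scaling and 0 to 24 on leaving out a library. Of all genes, 21.9% were lower and 4.67% higher in the main fit there, and 2.71% and 2.14% with the trends removed. The shares were 2.88% and 2.42% with median-of-ratios scaling added. On leaving out a library, 0.876% to 29.7% of all genes were lower and 0.0433% to 20.4% higher. The 8 genes past the cut-offs of the study there were 5 with quantile scaling, 4 with the trends removed under either scaling and 5 to 15 on leaving out a library. Atg12 and Bnip3l changed sign in that comparison with the trends removed, to 0.043 and 0.17, and to 0.071 and 0.19 when median-of-ratios scaling was added. For linagliptin over vehicle in DM-HFD cells, 2 genes instead of 0 passed the cut-offs of the study with the same sum in every library, and 0 to 3 on leaving out a library. For the difference in response, the 1 gene past them became 3 with a pseudocount of 0.1, 6 with the same sum in every library, 2 with sums of transcripts, 0 with median-of-ratios, quantile or non-mitochondrial scaling or with the trends removed under either scaling, and 0 to 5 on leaving out a library. The 8 transcripts became 14 with the same sum in every library, 5 with quantile scaling or without a trend in the prior variance, 0 with the trends removed, 1 with the trends removed after median-of-ratios scaling, and 2 to 8 on leaving out a library. The summed level of the 36 genes moved with median-of-ratios scaling to 2053 and 1962 in control cells with vehicle and linagliptin and to 2995 in DM-HFD cells with vehicle. With the same sum in every library it was 2295 in DM-HFD cells with vehicle and 2288 in control cells with vehicle. With sums of transcripts it was 2869, 2806, 3452 and 4161 FPKM in control cells with vehicle and linagliptin and DM-HFD cells with vehicle and linagliptin. The cause of these shifts was not tested. Shares of all genes past the cut-offs of the study, and of all transcripts called, are not given for these alternatives. Counts by those cut-offs and of transcripts therefore do not set the 36 genes apart from genes in general.

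With a replicate block the counts were 7 with vehicle (19.4%, all lower, against 17.1% of all genes), 0 with linagliptin (as for 0 of all 11555 genes) and 0 for transcripts. Same-numbered libraries did not deviate together throughout: r was above 0.1 in 0 of 3 pairs in either comparison of DM-HFD with control cells, in 4 of 5 between linagliptin and vehicle in control cells (-0.32 to 0.50, with 6 of 10 libraries closest to their own number) and in 1 of 3 in DM-HFD cells. Control and DM-HFD cells came from different mice, so only the comparisons of linagliptin with vehicle bear on a shared heart. In control cells most pairs deviated together, and in DM-HFD cells most did not. Whether same-numbered libraries came from the same heart is not given in the sources used here, and the libraries were not treated as paired. With a replicate block, 0 of the 36 genes passed for linagliptin over vehicle in either kind of cell, as did 0% of all genes. For the log2 fold changes of single named genes, 346 values under other settings kept their direction and their side of the threshold, 74 kept the direction alone and 4 changed sign, and on leaving out a library the first 2 counts were 247 and 41. Both sets of counts include the 3 genes named for each response to linagliptin and for the difference in response. Those genes passed under no setting, and staying uncalled counted as unchanged. The counts therefore do not measure the stability of called genes alone. Read numbers of single libraries are not used here, and precision rests on 3 or 5 libraries a group.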
